A study of Sus scrofa with 42 samples.

Results

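Fertilized (IVF) and parthenogenetic (PA) pig embryos were compared at the 4-cell stage, at which the embryonic genome of the pig is being switched on. The cells were chosen by their labels, as all blastomeres of IVF 4-cell embryos and those of PA 4-cell embryos apart from 2 that nearly repeat PA 2-cell blastomeres. They were 16 of the 42 sequenced cells, 9 of IVF and 7 of PA embryos, and came from 6 of the 20 embryos, 3 a side. The study sequenced whole 1-cell embryos and separated blastomeres of 2-, 4- and 8-cell embryos, made by IVF or PA from oocytes that were matured in culture. IVF 4-cell embryos 1, 2 and 3 gave 3, 2 and 4 blastomeres, and PA 4-cell embryos 1, 2 and 3 gave 1, 3 and 3.

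Both groups started from metaphase II oocytes of slaughterhouse gilt ovaries, freed of cumulus cells, and both were grown in the same culture medium until collection at 48 h. IVF embryos had been incubated with fresh boar semen. PA embryos had received electric pulses and then 6-dimethylaminopurine and cytochalasin B, which the IVF embryos did not receive, so parthenogenesis and these agents cannot be told apart. The 48 h were counted from the end of the incubation with semen in IVF and from the pulses in PA embryos, so the clocks differ. The labels give no oocyte donor and no boar. Embryos were therefore taken as the replicates, and p-values measure the spread between embryos that may share a batch of oocytes. The value of a gene in an embryo was the mean FPKM (fragments scaled to gene length and to the mapped reads of the cell) of its blastomeres. A level in a single blastomere cannot separate RNA that the oocyte stored from RNA that the embryo made.

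The early embryo lives on RNA and protein of the oocyte until its own genome takes over. In this handover, maternal RNA is degraded, and genes for making RNA, ribosomes and protein are among the first that the embryo transcribes. A parthenote has no paternal genome, so it has no Y chromosome, it lacks what sperm bring in, and genes that are read from the paternal copy alone stay silent in it. Imprinted genes are the known examples of the last class, and parthenotes of mammals do not develop to term.

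The relative depth of the 16 blastomeres, recovered from the steps of the lowest FPKM, ran from 0.646 to 1.57 of their median. It averaged 1.04 ± 0.111 in IVF and 0.957 ± 0.0877 in PA embryos (mean ± SD, n = 3 embryos each). When all 40 cells other than the near repeats were clustered, IVF blastomeres 1-2, 1-4, 3-2 and 3-3 (embryo and blastomere number) fell among the cells of 1- and 2-cell embryos, while the other 5 IVF and all 7 PA blastomeres fell among the later cells. The fits across genes were also made without these 4 blastomeres. The sum over Y-chromosome genes was at most 0.258 FPKM in a PA blastomere. In IVF embryos it reached 101 FPKM in blastomere 2-3 and 79.8 in 3-1, but stayed at 0.0639 in 2-2 and 0.074 in 3-3, so sister blastomeres differed. Oocyte and maternal-effect genes summed to 2293 ± 284 FPKM in IVF and 2245 ± 320 in PA embryos (n = 3 each, exact permutation p = 0.7). Markers of cumulus and granulosa cells summed to 3.71 to 20.5 FPKM in IVF and 1.38 to 15.1 in PA embryos, and 10 of the 13 in the table were above 0 in some blastomere, while INHBA, CD44 and GJA1 were at 0 in all. Of 6 sperm and spermatid genes in the table, SPATA18 and CRISP2 were at 0 in all 16, and the list summed to 1.49 to 3.18 FPKM in IVF and 4.03 to 54.0 in PA embryos. The part of these RNAs in the results was not tested.

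PA blastomeres held fewer well expressed genes. Genes at 1 FPKM or more numbered 2965, 2788 and 2597 on average in blastomeres of IVF embryos 1, 2 and 3, and 1458, 1707 and 1557 in those of PA embryos. The groups did not overlap, with means of 2783 ± 184 and 1574 ± 126 (n = 3 embryos each, two-sided exact permutation test, p = 0.1, the smallest that 3 against 3 embryos can give). Among single blastomeres, the lowest IVF value (1936 in 1-1) lay under the highest PA value (1992 in 3-1). Genes above 0 numbered 6263 ± 334 in IVF and 5514 ± 248 in PA embryos (exact permutation p = 0.1). Without the 4 blastomeres that grouped with earlier embryos, genes at 1 FPKM or more numbered 1936, 2788 and 2111 in IVF embryos, still without overlap (exact permutation p = 0.1), but genes above 0 numbered 5760 ± 1208 and overlapped with PA embryos (exact permutation p = 0.9). Mitochondrial mRNAs took 38.0%, 26.7% and 33.3% of the summed FPKM in IVF embryos 1, 2 and 3, and 54.0%, 20.4% and 51.7% in PA embryos (exact permutation p = 0.4). PA embryo 2 lay below every IVF embryo and the other PA embryos lay above.

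**Figure D1:**
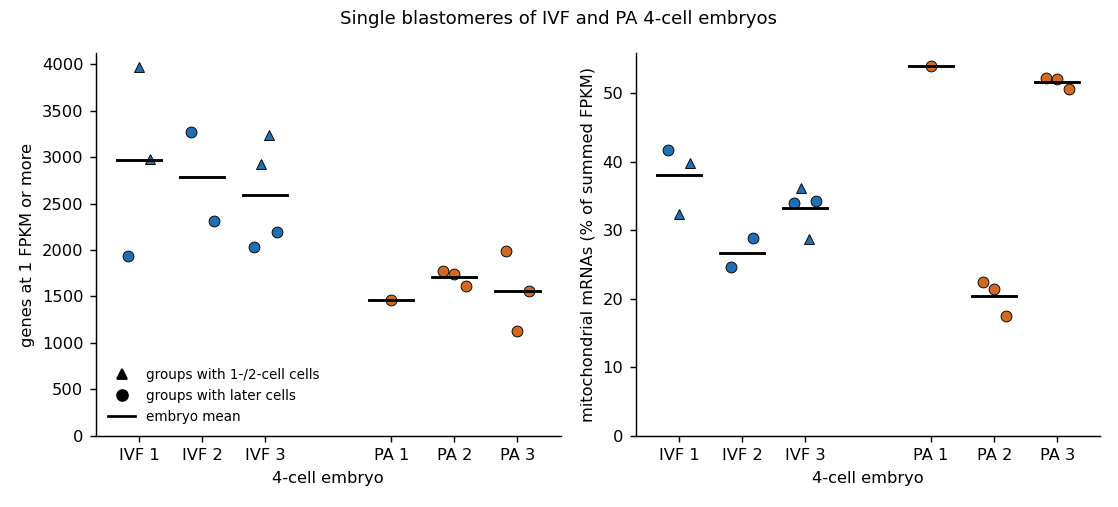
Number of genes at 1 FPKM or more (left) and share of mitochondrial mRNAs in the summed FPKM (right) in each blastomere, by 4-cell embryo; triangles mark the 4 IVF blastomeres that grouped with 1- and 2-cell embryos, and bars are embryo means. The bars of the 3 IVF embryos (2597 to 2965 genes) lie above those of the 3 PA embryos (1458 to 1707), while the mitochondrial shares of the groups overlap.

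Of 8033 genes tested, limma called 306 (3.81%) higher and 26 (0.324%) lower in IVF than in PA 4-cell embryos, by an adjusted p (Benjamini-Hochberg) under 0.05 and a change of at least 2-fold. At an unadjusted p under 0.05 there were 1414 and 159. Differences are log2 ratios of FPKM plus 1, which understates the change of genes near 0. The median over all genes tested was 0.60, so most genes lay higher in IVF embryos, and 1551 genes (19.3%) were higher and 133 (1.66%) lower in each IVF embryo than in any PA embryo. Each cell was also scaled by its median ratio over the nuclear genes that were above 0 in every cell used. This took the median of all genes to 0.01 and turned the balance, to 178 called higher and 325 lower. Of these, 149 and 26 were among the genes called without scaling. The excess of higher genes thus depended on the scaling. All 26 genes called lower were called under either scaling, but this is no support for them, as the scaling moved abundant genes further down. TNPO1 went from -1.97 to -4.67, SMAD5 from -0.12 to -3.02 and the median of the mitochondrial mRNAs from -0.13 to -2.86.

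The spread of 4-cell embryos differed from that of earlier ones. The median SD of a gene was 1.09 on the log2 scale in IVF and 0.54 in PA 4-cell embryos, against 0.538 to 0.714 in the groups of 1- and 2-cell embryos, with which they shared one estimate of the spread. As a root mean square over genes it was 1.47 in both 4-cell groups and 0.766 to 1.08 in the earlier ones. With the 4-cell groups alone, limma called 0 genes in either direction, with 431 higher and 41 lower at an unadjusted p under 0.05. Without the 4 IVF blastomeres that grouped with earlier embryos, 45 genes were called higher and 25 lower, of which 44 and 13 were called with them, and the median of all genes was 0.05. With 1 blastomere from each embryo, the one of lowest number, 43 and 23 genes were called, and 28 and 8 were shared. This takes away the difference in their numbers but also leaves out the same 4 IVF blastomeres, so these changes cannot be told apart in it. With the 2 near repeats of PA 2-cell blastomeres kept, 34 and 11 genes were called, and 34 and 6 were shared. Without IVF embryo 1, which holds a pair of those 4 blastomeres, 619 genes were called higher and 42 lower, of which 265 and 20 were shared. The higher genes shared numbered 173 of 213 without PA embryo 1 and 202 of 420 without IVF embryo 2. The lower genes numbered 48 without PA embryo 1 (12 shared) and 45 without PA embryo 3 (21 shared).

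**Figure D2:**
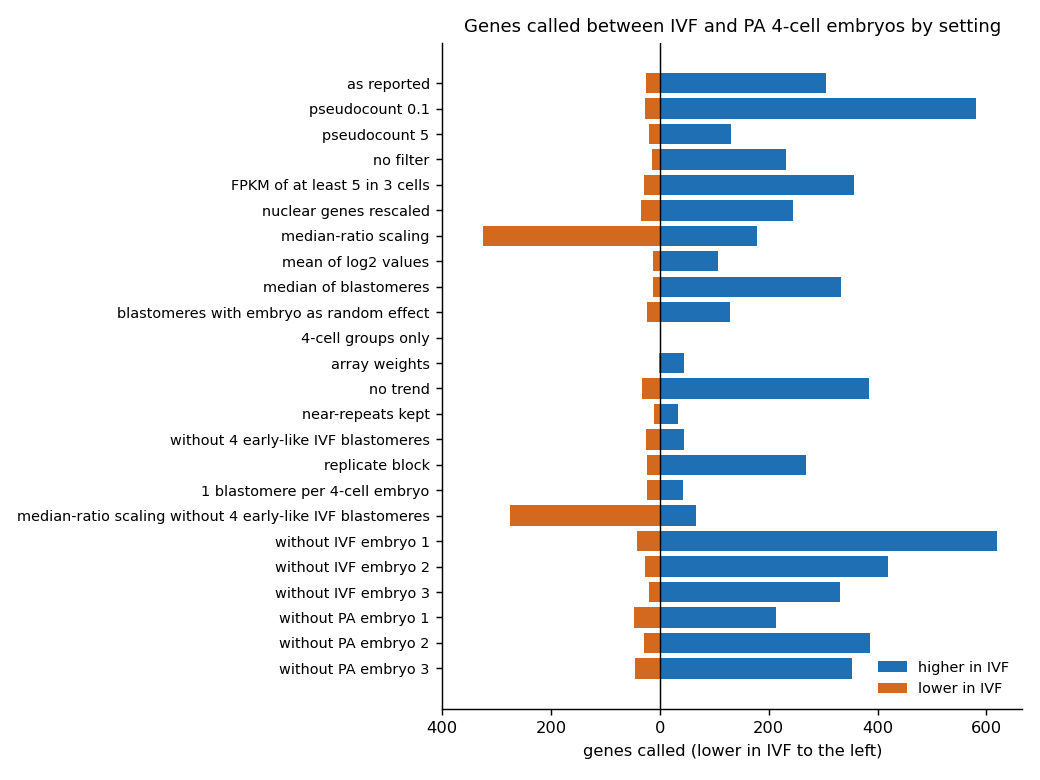
Genes called higher (blue, right) and lower (orange, left) in IVF than in PA 4-cell embryos, as reported and under each other setting. The 306 higher and 26 lower genes became 178 and 325 under median-ratio scaling, 45 and 25 without the 4 IVF blastomeres that grouped with earlier embryos (early-like), and 0 and 0 with the 4-cell groups alone.

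The genes called higher, which were chosen by these same values, were mostly near 0 in parthenotes and present in only some IVF blastomeres. Of the 306, 160 reached 1 FPKM in none of the 7 PA blastomeres, as did 3508 of the 8033 genes tested. The median gene of the 306 reached it in 6 of the 9 IVF blastomeres, against 2 for the median gene tested. The median level of the 306 was 20.6 FPKM in IVF and 0.19 in PA embryos, against 3.24 and 0.51 over all genes tested. At the 2-cell stage, 253 of the 306 averaged at least 1 FPKM in PA and 262 in IVF embryos, as did 4931 and 5535 of the 8033 genes tested.

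GMCL1, a germ cell-less family protein of the nuclear envelope, was at 40.3, 48.5 and 72.8 FPKM in IVF embryos 1, 2 and 3, and at 0.544, 0.299 and 0.258 in PA embryos. Among single IVF blastomeres it ran from 0.469 in 2-2 to 151.5 in 3-3, and 7 of the 9 were above 1 FPKM, as was no PA blastomere. Its log2 difference was 5.29 (standard error 0.562, limma adjusted p = 8.62e-05), and 20 of 23 other settings called it. SUMO2, a small protein that is attached to other proteins much as ubiquitin is, was at 43.8, 20.4 and 36.5 FPKM in IVF embryos and at 0.35, 0.102 and 0.0835 in PA embryos. It reached 1 FPKM in 8 of the 9 IVF blastomeres, all but 3-2, while the highest PA blastomere held 0.35 FPKM. The difference of SUMO2 was 4.82 (standard error 0.638, limma adjusted p = 0.00062), and it was called under 21 settings. Both genes were also called without the 4 blastomeres that grouped with earlier embryos and under median-ratio scaling. With the 2 near repeats kept, neither was called, at 2.06 and 2.03 (limma adjusted p = 0.328 and 0.315).

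PPP2CB, a catalytic subunit of protein phosphatase 2A, was at 50.3, 33.7 and 92.3 FPKM in IVF embryos 1, 2 and 3 and at 0.321, 0.2 and 0.126 in PA embryos. Its log2 difference of 5.50 (standard error 0.599, limma adjusted p = 8.62e-05) was 2.64 with no call without the 4 IVF blastomeres that grouped with earlier embryos, which held 21.6 to 332 FPKM, against 0.269 to 67.2 in the other 5. RRAGA, a Rag GTPase that relays amino acid supply to mTORC1, was at 61.1, 42.5 and 199.5 FPKM in IVF and 1.18, 0.811 and 2.29 in PA embryos. PAPSS1, which makes the sulfate donor of the cell, was at 43.6, 50.3 and 23.8 FPKM in IVF and 0.139, 0.163 and 0.0615 in PA embryos. Their differences were 5.12 and 5.10 (standard errors 0.643 and 0.651, limma adjusted p = 0.000476 for both), and neither was called without those 4 blastomeres, at 3.03 and 3.92.

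Promoters of GMCL1 and SUMO2 are shown because both genes were among the largest rises and were called under both of those changes. The windows run from 250 bases before to 50 after the RefSeq gene start in Sscrofa11.1, 5′ to 3′ on the strand of the gene, chr3:72619647-72619946 on the minus strand for GMCL1 and chr12:6116444-6116743 on the plus strand for SUMO2. Capitals mark matches, on either strand, to the CCAAT box (CCAAT), the GC box (GGGCGG), the TATA box (TATAAA), an ETS site (CCGGAAG), an E box (CACGTG) and an NRF1 site.
GMCL1: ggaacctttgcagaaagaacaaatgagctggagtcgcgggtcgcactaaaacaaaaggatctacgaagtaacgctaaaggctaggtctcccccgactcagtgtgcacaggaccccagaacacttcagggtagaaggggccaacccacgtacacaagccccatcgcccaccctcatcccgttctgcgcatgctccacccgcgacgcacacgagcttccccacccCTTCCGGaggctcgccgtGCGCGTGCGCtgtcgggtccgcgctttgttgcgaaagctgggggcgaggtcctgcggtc
SUMO2: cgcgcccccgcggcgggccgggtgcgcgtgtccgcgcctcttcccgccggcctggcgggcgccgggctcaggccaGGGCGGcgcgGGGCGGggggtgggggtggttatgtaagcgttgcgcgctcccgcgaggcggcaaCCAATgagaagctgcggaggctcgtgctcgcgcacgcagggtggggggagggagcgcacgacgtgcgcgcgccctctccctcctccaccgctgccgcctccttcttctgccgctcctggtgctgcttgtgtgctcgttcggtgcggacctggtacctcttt
Neither window holds a TATA box. GMCL1 has 1 ETS and 1 NRF1 match, and SUMO2 has 2 GC boxes and 1 CCAAT box. ETS letters were in 11% of all 19506 protein-coding promoters, 16.9% of those of genes tested and 20% of 270 promoters of genes called higher in IVF, and NRF1 letters in 6.32%, 10.3% and 14.1%. The TATA box was in 10.9%, 7.81% and 7.41%, respectively. GC boxes were in 50.6%, 62.7% and 65.2%, and CCAAT boxes in 35.4%, 37.7% and 36.3%. The E box, which neither window holds, was in 7.93%, 10% and 10.7%. In 17 promoters of genes called lower in IVF, ETS letters were in 11.8%, NRF1 letters in 23.5% and the TATA box in 11.8%. GC boxes were in 58.8% of them, CCAAT boxes in 41.2% and the E box in 0%. None of these shares was tested.

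The largest difference belonged to ssc-mir-9818, a miRNA precursor of 69 bases on the minus strand of chromosome 9, inside TECTA and inside an exon of a RefSeq gene on the opposite strand. It was at 394.6, 195.6 and 26.1 FPKM in IVF embryos 1, 2 and 3, and at 0, 0 and 0.534 in PA embryos. One blastomere carried most of the first value, with 1183 FPKM in 1-2 against 0 in 1-1 and 1.08 in 1-4. Its log2 difference was 6.80 (standard error 1.53, limma adjusted p = 0.0153), and it was 2.81 with no call without the 4 blastomeres that grouped with earlier embryos. TECTA itself differed by 0.03 (limma adjusted p = 1). The sequence of the locus, printed because so short a gene gets a high FPKM from few reads, is that of chr9:48163315-48163383, all in lower case.
ssc-mir-9818: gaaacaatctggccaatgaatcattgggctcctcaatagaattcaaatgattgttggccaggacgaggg
Counting by strand is not stated, so reads of overlapping genes cannot be assigned. The largest rise without a symbol, ENSSSCG00000037129, lies within RANBP2 on the other strand and was at 80.2, 130.9 and 41.4 FPKM in IVF and at most 0.101 in PA embryos (log2 difference 6.18, limma adjusted p = 0.00434).

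The 12 largest rises with a symbol included 6 more genes. HIBADH, a mitochondrial enzyme of valine breakdown, was at 41.8, 91.0 and 14.5 FPKM in IVF and at most 0.0532 in PA embryos. HMG20B, a subunit of the LSD1-CoREST complex that silences genes, was at 26.3, 126.3 and 18.3 against at most 0.199 FPKM. NRG4, a ligand of the receptor ERBB4, was at 107.1 and 91.4 in IVF embryos 1 and 2 but 2.64 FPKM in embryo 3, against at most 0.13 in PA embryos. The log2 differences of HIBADH, HMG20B and NRG4 were 5.24, 5.21 and 4.97 (limma adjusted p = 0.0015, 0.0015 and 0.0139). The largest rises were named only among genes without overlap between the groups, so its absence is no support for them. DNAJC21, a chaperone that helps to make the large ribosomal subunit, was at 71.8, 89.8 and 57.0 FPKM in IVF and 0.136, 2.67 and 2.41 in PA embryos, a difference of 4.91 (limma adjusted p = 0.00466) that median-ratio scaling did not call. BZW2, a regulator of translation start, was at 10.4, 85.9 and 40.9 FPKM in IVF and at most 0.202 in PA embryos, a difference of 4.90 (limma adjusted p = 0.00968). ZIM2 is described with the imprinted genes. HIBADH, NRG4 and BZW2 overlap another gene, and none of these 6 was called without the 4 blastomeres that grouped with earlier embryos. Their differences were then 2.17 for HIBADH, 3.69 for HMG20B, 2.25 for NRG4, 3.08 for DNAJC21, 4.67 for BZW2 and 1.54 for ZIM2.

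**Figure D3:**
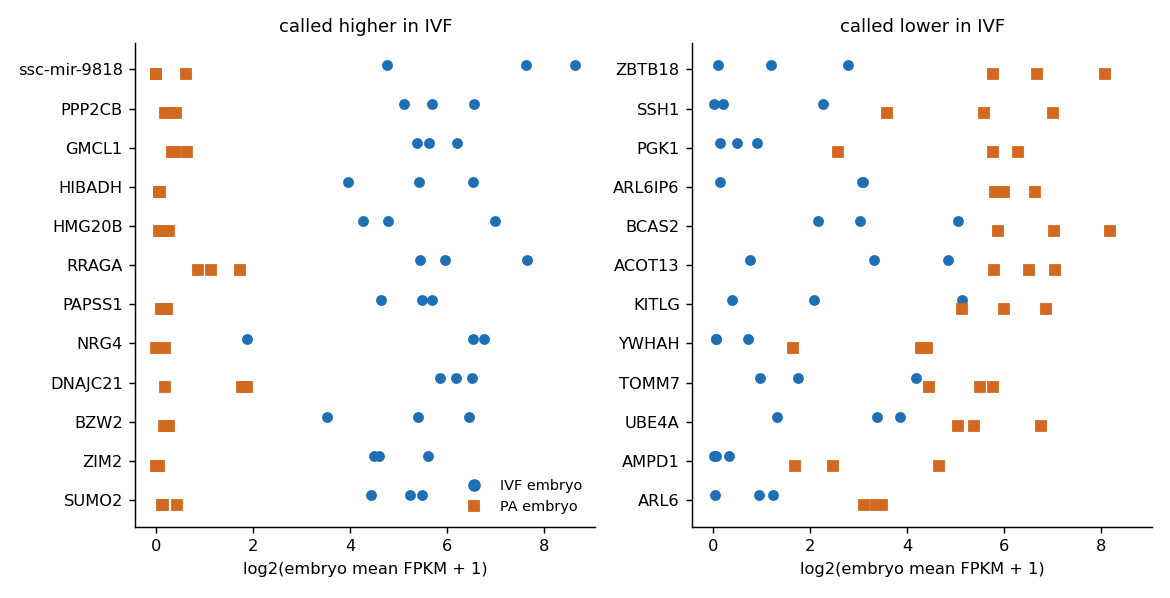
Embryo mean levels, log2(FPKM + 1), of the 12 genes with the largest rise (left) and the 12 with the largest fall (right) in IVF against PA 4-cell embryos among called genes with a symbol whose embryos did not overlap between the groups. Each point is 1 of 3 embryos a side; the PA embryos of the rising genes lie near 0, at most 2.67 FPKM (DNAJC21), and the IVF embryos of the falling genes spread more widely.

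Across the fit reported above, median-ratio scaling and the fit without the 4 blastomeres that grouped with earlier embryos, 26 genes were called higher in IVF embryos each time. They included SAP30BP, ELK4 (an ETS factor that works with serum response factor), EML4, SLC39A10 (a zinc importer), YWHAG (a 14-3-3 protein), ATG5 (needed to build autophagosomes) and SRP14 (a part of the signal recognition particle). PPP1CB, a catalytic subunit of protein phosphatase 1, was at 29.5, 23.3 and 20.2 FPKM in IVF embryos and 0.161, 0.206 and 0.878 in PA embryos, a narrow range within IVF (log2 difference 4.18, limma adjusted p = 0.000659). CDCA7L was at 28.1, 26.1 and 27.6 against 0.051, 0.751 and 1.25 FPKM (4.14, limma adjusted p = 0.00466). RRN3, the factor that brings RNA polymerase I to ribosomal RNA genes, was at 8.48, 72.03 and 31.6 against at most 0.0799 FPKM (4.76, limma adjusted p = 0.00225). All 26 were without overlap between the groups, as were 1551 (19.3%) of the 8033 genes tested, but they were called on these same values. Of them, 17 reached 1 FPKM in no PA blastomere, as did 3508 of the 8033. Another 2852 of the 8033 is the background for overlap with a further gene, found for 9 of the 26, as RRN3 overlaps NTAN1 and CDCA7L overlaps DNAH11. Apart from RRN3, these examples were picked from the 26 after their values were seen. With the 2 near repeats kept, none of these examples was called (limma adjusted p = 0.0585 to 0.206). Of the 26, LRIF1, RNF216, SNX12, CRNKL1, TCTN2 and OAF alone kept the call then (limma adjusted p = 0.0409 to 0.0482). With the 4-cell groups alone, 0 genes were called.

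**Figure D4:**
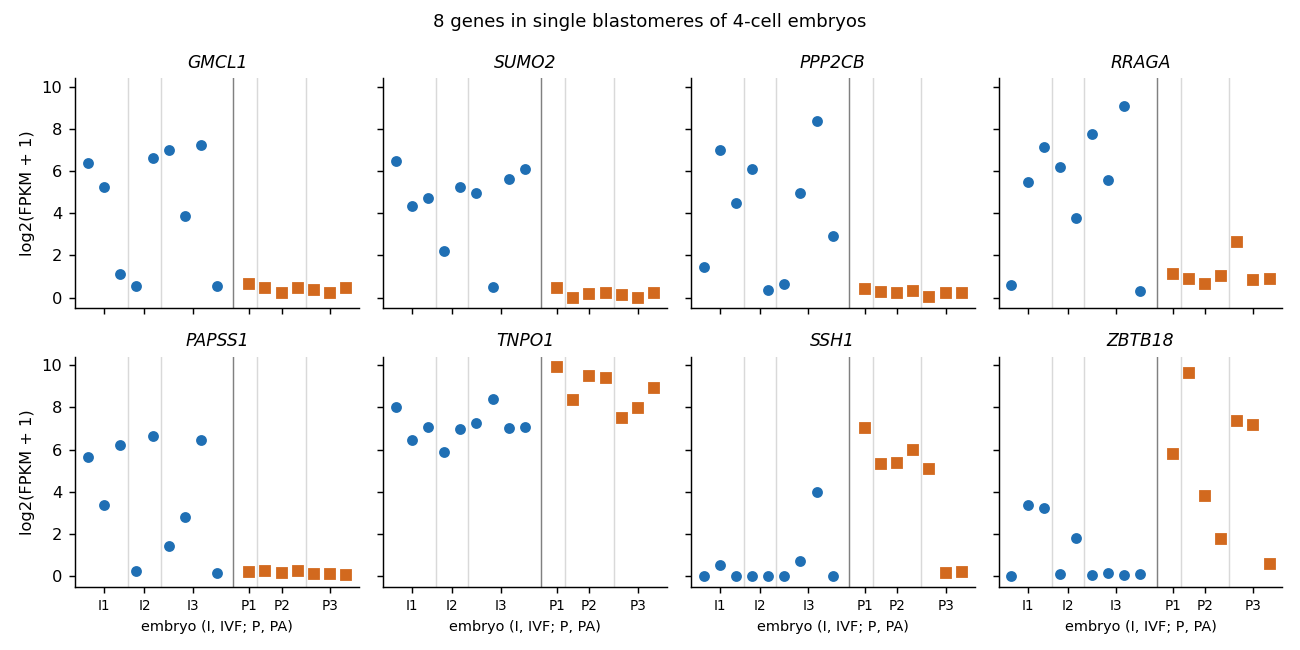
Levels of 8 genes, log2(FPKM + 1), in the 9 IVF (blue circles) and 7 PA (orange squares) blastomeres, ordered by embryo (I1 to I3 and P1 to P3). GMCL1, SUMO2, PPP2CB and PAPSS1 are at most 0.545 FPKM in every PA blastomere and reach 86.6 FPKM or more in an IVF blastomere, while TNPO1 is present in all 16 blastomeres.

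Among the 26 genes called lower in IVF embryos, ZBTB18 had the largest difference. This zinc finger repressor was at 53.8, 268.1 and 101.3 FPKM in PA embryos 1, 2 and 3 and at 5.83, 1.27 and 0.0624 in IVF embryos. A single blastomere, 2-2 with 788.9 FPKM, set the level of PA embryo 2, whose others held 13.1 and 2.39. ZBTB18 differed by -5.50 (standard error 1.31, limma adjusted p = 0.0223). SSH1, a phosphatase that activates cofilin and so acts on actin, was at 127.3, 47.1 and 11.04 FPKM in PA embryos, against 0.149, 0.00959 and 3.83 in IVF. It reached 32.9 FPKM or more in 5 of 7 PA blastomeres and 14.6 in 1 IVF blastomere, 3-3, and differed by -4.57 (standard error 0.873, limma adjusted p = 0.00609), with a call under 20 of 23 other settings. PGK1, an enzyme of glycolysis on the X chromosome, was at 4.94, 76.7 and 53.8 FPKM in PA embryos, against at most 0.855 in IVF. Its PA level came from 3 blastomeres, 1-3, 2-4 and 3-1 with 4.94, 229.9 and 161.2 FPKM, as the other 4 were below 0.1 (log2 difference -4.37, limma adjusted p = 0.0113).

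Other named genes lower in IVF embryos had smaller log2 differences. AMPD1, an AMP deaminase, was at 0.255 FPKM or less in IVF embryos, and at 2.22, 24.3 and 4.499 in PA embryos (log2 difference -2.80, limma adjusted p = 0.00541). ARL6IP6, which overlaps another gene, was at 98.4, 63.2 and 54.8 against 7.55, 0.104 and 7.33 FPKM (-4.05, limma adjusted p = 0.00776). Its PA level came from 3 blastomeres, 1-3, 2-3 and 3-4 with 98.4, 189.2 and 164.4 FPKM, as the others held at most 0.293. TOMM7, a small subunit of the protein import pore of the outer mitochondrial membrane, was at 53.6, 44.1 and 20.8 against 17.1, 0.944 and 2.37 FPKM (-2.94, limma adjusted p = 0.0355). AMPD1, ARL6IP6 and TOMM7 kept the call without the 4 IVF blastomeres that grouped with earlier embryos. So did ACOT13, a thioesterase that overlaps C6orf62 (-3.48, limma adjusted p = 0.0307). BCAS2, a member of the spliceosome, was at 289.7, 57.6 and 129.4 FPKM in PA embryos, against 7.13, 3.49 and 32.1 in IVF (-3.62, limma adjusted p = 0.0181). KITLG, the ligand of the receptor KIT, was at 115.0, 34.0 and 62.8 FPKM in PA embryos and 33.98 in IVF embryo 2, so the groups nearly met (-3.47, limma adjusted p = 0.0486). YWHAH, ARL6 and UBE4A differed by -3.17, -2.57 and -2.88 (limma adjusted p = 0.0379, 0.0351 and 0.0276), and ARL6 and UBE4A overlap another gene. The largest fall without a symbol, ENSSSCG00000039417 on chromosome 6, was at 114.1, 177.3 and 62.5 FPKM in PA embryos, against 2.04, 2.06 and 34.2 in IVF (-3.99, limma adjusted p = 0.0107), and 2 more of the 26, ENSSSCG00000037632 and ENSSSCG00000040680, are linked to it by overlap and may be counted from the same reads.

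Genes that the study names for the contrast of IVF with PA were mostly not called. It chose them in part on these cells, so their directions are no independent evidence. Of 20 loci tested, 1 (5%) was called higher and 2 (10%) lower, against 3.81% and 0.324% of all genes. TNPO1, the import receptor transportin-1, was at 947, 565 and 306 FPKM in PA embryos 1, 2 and 3 and at 159.9, 90.2 and 186.6 in IVF embryos, with at least 177.7 FPKM in every PA blastomere and at most 334 in an IVF blastomere. It differed by -1.97 (standard error 0.505, limma adjusted p = 0.0336), and by -1.86 with no call without the 4 blastomeres that grouped with earlier embryos. UBE4A, a ubiquitin ligase, was the other lower gene. ENSSSCG00000004489, which the study names as EEF1A1, the factor that carries aminoacyl-tRNA to the ribosome, was at 141, 261.9 and 138 FPKM in IVF and 0.705, 22.0 and 18.6 in PA embryos (log2 difference 4.24, standard error 0.833, limma adjusted p = 0.00729). ENSSSCG00000037674 on its other strand moved with it, by 4.57.

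Values of the other named loci overlapped or missed the threshold. FTL, the ferritin light chain, which overlaps GYS1, was at 1410, 712.5 and 498.5 FPKM in IVF and 230.2, 239.2 and 351.5 in PA embryos, without overlap, but its difference of 1.56 (limma adjusted p = 0.0687) was -1.53 under median-ratio scaling. OTX2, a homeobox factor, was at 31.9, 65.8 and 21.7 against 0.25, 13.2 and 18.5 FPKM (2.39, limma adjusted p = 0.119). ENSSSCG00000017032, in RefSeq PTTG1, the securin that holds sister chromatids together until anaphase, was at 1751, 373 and 1567 FPKM in PA embryos, against 156.9, 672 and 274.9 in IVF (-1.71, limma adjusted p = 0.117). SEPTIN11, a filament-forming GTPase listed under a date-like name, and SMAD5, which relays BMP signals, differed by -0.73 and -0.12 (limma adjusted p = 0.531 and 0.993). Both were called lower under median-ratio scaling, with differences of -3.49 and -3.02. 7SK RNA on chromosome 7 was at 889 FPKM in IVF embryo 1 and between 1.05 and 5.71 in the other 5 embryos (2.30, limma adjusted p = 0.702). FAM151B, MIER3, EYA1, ZNF449, SALL2, PABPC5, the second tested 7SK locus, and the unnamed ENSSSCG00000035376, ENSSSCG00000038391 and ENSSSCG00000004151 differed by -0.99 to 3.13 with limma adjusted p of 0.132 or more.

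Paternal RNA was looked for by place and by imprinting. The table holds 25 genes of the Y chromosome, of which 15 had a value above 0 in a 4-cell blastomere and 5 were tested, of which limma called 0, with 1 at an unadjusted p under 0.05. ENSSSCG00000034141 was at 47.1 FPKM in IVF embryo 2, at most 0.0702 in the other IVF embryos and 0 in all PA embryos. ENSSSCG00000027046 was at 2.81 and 1.06 FPKM in IVF embryos 2 and 3, and ENSSSCG00000038249 and ENSSSCG00000012178 at 3.48 and 1.12 in embryo 3, with all 3 listed at 0 in PA embryos. ENSSSCG00000012179, which was not tested, was at 18.5 FPKM in IVF embryo 3, from 73.8 FPKM in blastomere 3-1, and 0 in PA embryos. IVF embryo 1 had no Y gene above 1 FPKM on average.

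ZIM2, a zinc finger gene that neighbours PEG3 and is read from the paternal copy in humans, was at 47.4, 23.0 and 21.3 FPKM in IVF embryos 1, 2 and 3 and at 0, 0.00856 and 0.034 in PA embryos. It was above 1 FPKM in 5 of 9 IVF blastomeres and in none of PA. Its log2 difference was 4.87 (standard error 0.721, limma adjusted p = 0.0015), and 18 of 23 other settings called it, but the difference was 1.54 with no call without the 4 blastomeres that grouped with earlier embryos, of which 1-4 and 3-3 held 115.7 and 84.7 FPKM. At the 2- and 1-cell stage it differed by 0.60 and 0.69. PEG3 was at 0 in all 16 blastomeres.

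Of 8 tested genes that other mammals express from the paternal copy, a list that does not hold ZIM2, 0 were called by limma (3 at an unadjusted p under 0.05) and 6 lay higher in IVF embryos, with a median of 0.88 against 0.60 over all genes. The median was -0.08 under median-ratio scaling. NAP1L5, a histone chaperone relative that overlaps HERC3 on the other strand, was at 0, 41.9 and 3.60 FPKM in IVF embryos and listed at 0 in every PA embryo (limma adjusted p = 0.0761). PEG10, a gene derived from a retrotransposon, was at 33.9, 10.9 and 5.91 FPKM in IVF and 0.0388, 1.43 and 2.90 in PA embryos (log2 difference 2.73, standard error 0.899, limma adjusted p = 0.0942). INPP5F, a phosphatase of inositol lipids, was at 10.49, 2.55 and 16.3 against 0.0541, 2.38 and 0.0786 FPKM (2.51, limma adjusted p = 0.169). PLAGL1 (1.39), SGCE (0.38), MEST (0.09) and DIRAS3 (-0.27) overlapped between the groups, with limma adjusted p of 0.404 to 1. The 3 tested genes of maternal expression, among them IGF2R (0.46, limma adjusted p = 0.458) and UBE3A (1.00, limma adjusted p = 0.566), had a median of 0.46, with 0 called and 0 at an unadjusted p under 0.05.

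ZFP42 (REX1), a marker of pluripotent cells, was the called member of the 35 tested embryonic transcription factors (2.86%, against 3.81% of all genes). It was at 0.0163, 18.9 and 19.6 FPKM in IVF embryos 1, 2 and 3, and listed at 0 in all PA embryos and in 5 of 9 IVF blastomeres (limma adjusted p = 0.0307). It was above 1 FPKM in 2-2, 2-3 and 3-4 alone, all of them blastomeres that grouped with later cells. The list as a whole had a median of 0.26, which median-ratio scaling moved to -1.11, with 5 called lower.

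Ribosome biogenesis had the highest median of the 25 lists. Of 60 genes tested, 6 (10%) were called higher and none lower, 55 lay higher in IVF embryos, and the median was 1.497 against 0.60 over all genes, where 3.81% were called higher. It remained above that of all genes without the 4 blastomeres that grouped with earlier embryos (1.14 against 0.05) and under median-ratio scaling (0.79 against 0.01), where 2 and 3 of its genes were called higher. Besides RRN3, SBDS, which frees the large ribosomal subunit for work, was at 25.6, 17.8 and 47.2 FPKM in IVF and 0.123, 0.553 and 0.0623 in PA embryos (log2 difference 4.56, limma adjusted p = 0.0015). HEATR1, a part of the complex that processes the small subunit's RNA, was at 29.4 FPKM or more in IVF embryos 1 and 2 and 9.91 in embryo 3, against at most 0.0846 in PA embryos (4.38, limma adjusted p = 0.00621). DDX18, a nucleolar helicase, was at 30.6, 48.2 and 25.8 against 0.354, 3.63 and 3.85 FPKM (3.47, limma adjusted p = 0.00541), and was in all 9 IVF blastomeres. WDR75 and UTP15 were the other called members. SBDS and HEATR1 were not called without the 4 blastomeres, DDX18 was not called under median-ratio scaling, and WDR75 and UTP15 were called in neither.

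Most genes of translation lay higher in IVF embryos, as did 5991 of the 8033 genes tested. Of 60 cytosolic ribosomal protein genes tested, 53 lay higher, with a median of 1.05 and 2 called (3.33%, against 3.81% of all genes), and of 47 translation factors 39, with a median of 0.93 and 4 called (8.51%). Without the 4 blastomeres that grouped with earlier embryos the medians were 1.03 and 0.95, with 0 called in both, and under median-ratio scaling 0.13 and 0.28, with 0 higher and 2 lower ribosomal protein genes and 2 higher and 2 lower factors. RPS3 was at 5.49, 210.4 and 176.8 FPKM in IVF and 3.70, 3.47 and 2.47 in PA embryos (3.903, limma adjusted p = 0.0317). RPL5, which overlaps other genes and snoRNAs, was at 21.9, 61.8 and 14.6 against 0.0814, 0.105 and 7.36 FPKM (3.71, limma adjusted p = 0.0128). EIF4H, a helper of the helicase that opens mRNA for ribosomes, was at 10.98, 28.0 and 79.8 against at most 0.447 FPKM (4.61, limma adjusted p = 0.00226), and EIF4A2, EIF4A3 and EIF2S2 differed by 4.13, 3.18 and 2.85 (limma adjusted p = 0.0379, 0.0373 and 0.0485). Mitochondrial ribosomal proteins had a median of 0.68 (2 of 48 called, 4.17%), MRPL43 differing by 3.94 and MRPS10 by 3.11 (limma adjusted p = 0.00541 and 0.0363).

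Splicing factors and hnRNPs numbered 88 tested, with 7 called higher (7.95%) and none lower, and a median of 0.81. The median was 0.59 without the 4 blastomeres that grouped with earlier embryos and 0.07 under median-ratio scaling, where 5 were called higher and 4 lower. HNRNPU, which binds nascent RNA and chromatin and overlaps another gene, was at 85.8, 153 and 301.4 FPKM in IVF and 0.694, 32.1 and 15.4 in PA embryos (log2 difference 4.04, limma adjusted p = 0.00753). CRNKL1, a core protein of the spliceosome that overlaps NAA20, was at 5.46, 26.6 and 14.7 against at most 0.0231 FPKM (3.80, limma adjusted p = 0.00729). HNRNPK and DHX38 differed by 3.70 and 3.63 (limma adjusted p = 0.00867 and 0.00434), and DDX39B, PRPF18 and EIF4A3 were called as well, while BCAS2 of the same machine, which the list does not hold, fell.

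**Figure D5:**
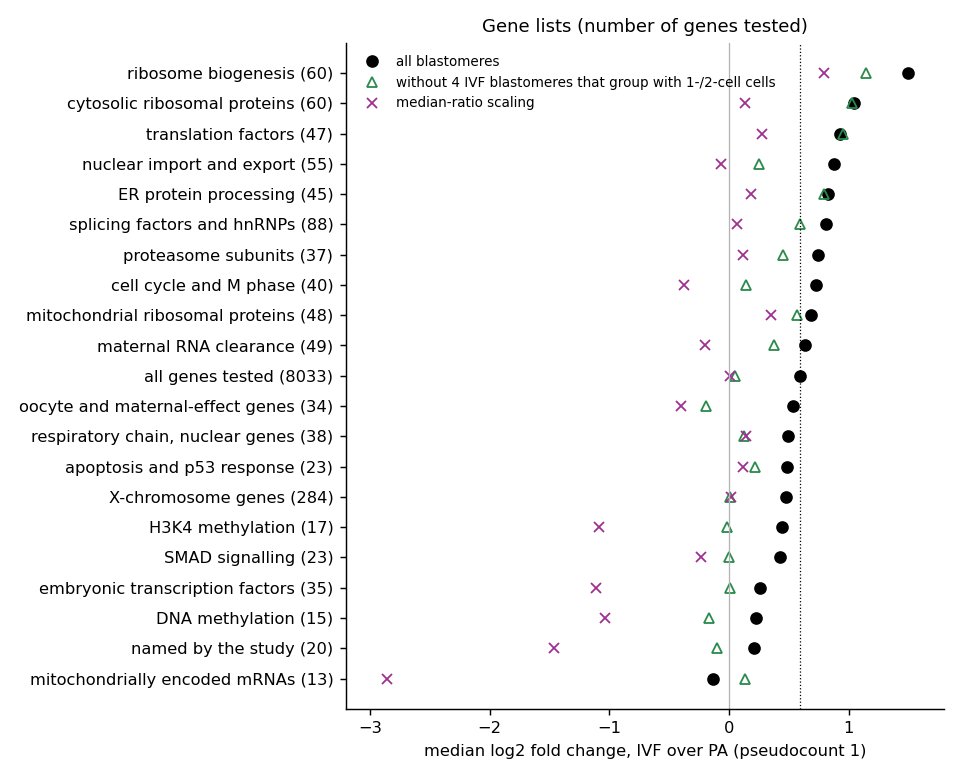
Median log2 fold change of IVF over PA 4-cell embryos (positive, higher in IVF) for the 20 lists with at least 10 genes tested and for all genes (dotted line, 0.60); circles use all blastomeres, triangles leave out the 4 IVF blastomeres that grouped with earlier embryos, and crosses use median-ratio scaling. Ribosome biogenesis is highest in all 3, at 1.497, 1.14 and 0.79.

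The medians of the remaining lists ran from -0.87 to 0.88, and several changed sign with the scaling. Nuclear import and export (55 tested, median 0.88) had 2 higher (3.64%) and 1 lower genes (1.82%), against 3.81% and 0.324% of all genes. NUP50, a nucleoporin, was at 12.9, 46.3 and 16.8 FPKM in IVF and at most 0.175 in PA embryos (log2 difference 4.40, limma adjusted p = 0.00178), and RANBP2, at the cytoplasmic side of the pore and overlapping other genes, differed by 3.37 (limma adjusted p = 0.0225), against the fall of TNPO1. The median of the list was -0.06 under median-ratio scaling, with 1 called higher and 8 lower. ER protein processing (45 tested, median 0.83, 0.19 under median-ratio scaling) had 2 called, ERO1A, which makes disulfide bonds, at 3.31 and DERL1 at 3.29 (limma adjusted p = 0.0108 and 0.0419). Of 40 cell cycle genes (median 0.72, -0.37 under median-ratio scaling), the replicative helicase subunit MCM6, the retinoblastoma gene RB1 and FBXO5, an inhibitor of the anaphase-promoting complex, differed by 4.13, 3.69 and 2.84 (limma adjusted p = 0.0169, 0.0153 and 0.0317). Proteasome subunits (37 tested, median 0.74) had PSMD1 (3.41, limma adjusted p = 0.049, with embryos that overlapped), and nuclear genes of the respiratory chain (38 tested, median 0.49) had COX7A2L (2.96, limma adjusted p = 0.0223). The shares called higher were 4.44% for ER protein processing, 7.5% for the cell cycle, 2.7% for the proteasome and 2.63% for the respiratory chain.

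Maternal RNA showed no called loss or excess in the oocyte list. Of 34 oocyte and maternal-effect genes tested, 0 were called by limma, with 10 at an unadjusted p under 0.05 (21 lay higher in IVF embryos, median 0.53), while under median-ratio scaling 8 were called lower (median -0.40). BTG4, which recruits a deadenylase to maternal mRNA and overlaps C11orf88, was at 521, 267.9 and 295.8 FPKM in IVF and 65.3, 235.3 and 119.8 in PA embryos (1.49, limma adjusted p = 0.0992). OOSP2, an oocyte-secreted protein, was at 55.3, 2.47 and 82.7 against 582.2, 118.1 and 60.6 FPKM (-2.68, limma adjusted p = 0.112), and it was called lower at -5.78 without the 4 blastomeres that grouped with earlier embryos. Of 49 genes for clearing maternal RNA, UPF2 of nonsense-mediated decay was called (3.44, limma adjusted p = 0.029), 2.04% against 3.81% of all genes. The median of that list was 0.64, and -0.20 under median-ratio scaling.

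Genes of DNA methylation (15 tested, median 0.23), H3K4 methylation (17, 0.44), SMAD signalling (23, 0.43), apoptosis and p53 (23, 0.48), sperm (3, -0.87) and cumulus markers (6, 0.27) had 0 calls by limma, with 4, 1, 6, 5, 1 and 1 genes at an unadjusted p under 0.05. Among their lowest unadjusted p were those of MBD1 (1.58) and TRIM28 (1.81), KDM5A (2.49) and DPY30 (-1.92), SKIL (-2.54) and ACVR2A (2.61), XIAP (2.62), DKKL1 (-1.40) and LDHC (-0.87), and VCAN (2.29) and CYP19A1 (0.46), with limma adjusted p of 0.0642 to 0.793. Of these lists, the medians of DNA methylation, H3K4 methylation and SMAD genes were below 0 under median-ratio scaling, at -1.03, -1.08 and -0.23. The 13 mitochondrial mRNAs had a median of -0.13 and 0 calls by limma, with 1 at an unadjusted p under 0.05. ATP8 differed by -1.72 and ND4 by 1.05 (limma adjusted p = 0.239 and 0.283). Of 284 X-chromosome genes tested, 4 were called higher and 4 lower, 1.41% each, against 3.81% and 0.324% of all genes (median 0.47). Under median-ratio scaling 3 were called higher and 18 lower (median 0.02), and without the 4 blastomeres 1 and 2. The higher ones included SNX12 (3.98), DMD (3.29) and STAG2 (2.95), with limma adjusted p = 0.00353, 0.021 and 0.0443, and the lower ones were PGK1, MBNL3, IL2RG and ENSSSCG00000035908. The study sexed 2 of the 3 IVF 4-cell embryos as male and all PA embryos as female, so sex differed between the groups as well as the method. The part of sex in the X-chromosome values was not tested.

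Earlier stages were used to ask whether these differences arose at the 4-cell stage. IVF and PA embryos differed in 4 genes at the 1-cell stage (1 higher, 3 lower) and in 0 at the 2-cell stage by limma, with 251 higher and 77 lower at an unadjusted p under 0.05 at the 1-cell and 356 and 74 at the 2-cell stage. The difference at the 4-cell stage exceeded that at the 2-cell stage for 6 genes (0.0747%) and that at the 1-cell stage for 5 genes (0.0622%), and fell short of it for none that passed, while at an unadjusted p under 0.05 it exceeded them for 547 and 538 genes and fell short for 130 and 121. The 4-cell embryos of this test are those that gave the calls above, so the test is no independent evidence. RRAGA, SUMO2 and PPP2CB passed against both stages, by 5.65, 5.09 and 4.78 against the 2-cell stage (standard errors 0.91, 0.902 and 0.848, limma adjusted p = 0.0238, 0.0353 and 0.0353). At the 2-cell stage their own differences were -0.54, -0.27 and 0.72, and at the 1-cell stage -0.20, -0.35 and 0.29, all with limma adjusted p of 1. GMCL1 (4.99), PAPSS1 (5.07) and ENSSSCG00000035662 (6.18), which overlaps NREP in RefSeq, passed against the 2-cell stage (limma adjusted p = 0.0238, 0.0353 and 0.0353). HMG20B and SNRPA, a protein of the U1 snRNP, passed against the 1-cell stage, by 7.42 and 5.07 (limma adjusted p = 0.013 and 0.00439). For SNRPA this came from the 1-cell stage, where it differed by -3.52, as it was not called at the 4-cell stage (1.56, limma adjusted p = 0.0773). Counted in both directions, the 6 genes became 3 without the 4 IVF blastomeres that grouped with earlier embryos. Of these, 1 exceeded the difference at the 2-cell stage and 2 fell short of it. The count was 0 with 1 blastomere per embryo. Without IVF embryo 1, 2 and 3 it was 129, 44 and 7, of which 124, 41 and 6 exceeded the 2-cell difference. Without PA embryo 1, 2 and 3 it was 13, 18 and 19, of which 8, 17 and 14 did so.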

How the data were processed

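Single blastomeres were lysed and their cDNA amplified by Ansuper-seq and sequenced on an Illumina HiSeq X-Ten. The authors aligned the reads to Sscrofa11.1 with HISAT2, used StringTie and HTSeq, and deposited FPKM per gene for 15351 genes. Versions, the annotation release, strand and molecular identifiers are not given in the sources used here. The deposited table holds no read counts, but 90.55% of low values were whole multiples of 1 step (within 0.002), which gave relative depth. The study's read totals were not used here, so precision rests on the embryos. Since FPKM are not counts, the study's DESeq2 test was replaced by limma.

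PA blastomeres 4-cell-1-4 and 4-cell-2-1 were left out, as they correlated at 0.9988 and 0.9989 with PA 2-cell blastomeres, against at most 0.9307 for any other pair of cells. Blastomeres were averaged per embryo and log2(FPKM + 1) was fitted with limma 3.58.1 (R 4.3.3, with a mean-variance trend) over the embryos of all 8 groups of method and stage, which share 1 estimate of the spread (3 embryos a group, but 1 at the 8-cell stage). A call needed an adjusted p under 0.05 and a 2-fold change. Genes tested reached 1 FPKM in at least 3 of the cells used. The fit was tested on simulated data, in which cells were independent and each gene had 1 spread at all stages. It therefore could not test whether sharing the spread suits the more variable 4-cell embryos. For single values, exact permutation tests over embryos were two-sided. The members and gene lists were chosen with earlier results of these data known. Named genes were the 12 largest changes with a symbol and the 1 largest without in each direction among calls whose embryos did not overlap, up to 4 called genes of each list by p (or 2 where none was called), all loci the study names, and Y or imprinted genes above 1 FPKM. Promoters came from RefSeq. Python 3.11.15 was used, and 23 other settings were tried. Some results are not reported here.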

Additional observations from a re-analysis of the deposited data

Results flagged for a closer look

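IVF blastomere 1-1 had 4367 genes above 0, farther below the other 8 IVF 4-cell blastomeres than Dixon's test allows at 95%. It was also the cell of lowest relative depth (0.646), and the part of depth was not tested. It was 1 of 24 such gaps looked at, and chance alone gives one in about 1 in 20 groups.

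The difference between IVF and PA embryos was larger at the 4-cell than at the 2-cell stage for PPP2CB (by 4.78), SUMO2 (5.09), RRAGA (5.65), ENSSSCG00000035662 (6.18), GMCL1 (4.99) and PAPSS1 (5.07), by limma's test of the difference (adjusted p = 0.0238 to 0.0353). Against the 1-cell stage the signed difference was higher for PPP2CB (5.22), SUMO2 (5.16), RRAGA (5.31), HMG20B (7.42) and SNRPA (5.07), with limma adjusted p = 0.00439 to 0.0268. For SNRPA this came from a negative difference at the 1-cell stage, and it was not called at the 4-cell stage. Each value is a log2 difference of FPKM plus 1, over 3 embryos a side at the 4-cell stage.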

How the results depend on the processing

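Of the alternatives for single named genes, 1791 kept the direction and side of the threshold, 479 lost and 65 gained the call, and 58 changed sign. Of these, 2 were of called genes, NRG4 (-0.014 with 1 blastomere per embryo) and COX7A2L (-0.028 with both median-ratio scaling and the 4 IVF blastomeres that grouped with earlier embryos left out). Those 2 settings were chosen after seeing the data. The others were of genes with no call in either fit, and the cause was not tested. Below, both changes stand for median-ratio scaling with the 4 blastomeres left out. Under median-ratio scaling, the differences of IGF2R (-0.571), UBE3A (-1.007), BTG4 (-0.845), ZNF449 (-0.975), FTL (-1.528), ENSSSCG00000038391 (-0.683), FAM151B (-1.402), ND4 (-1.801), MEST (-2.807) and PLAGL1 (-0.078) changed sign. With both changes, those of IGF2R (-0.602), UBE3A (-0.695), BTG4 (-0.653), ZNF449 (-1.459), OTX2 (-1.484), SALL2 (-0.176), FTL (-1.108), ENSSSCG00000038391 (-0.091), FAM151B (-2.207), ND4 (-1.296), MEST (-2.713) and PLAGL1 (-1.315) changed sign. With 1 blastomere per embryo, those of BTG4 (-0.505), DPY30 (0.009), ZNF449 (-0.118), OTX2 (-1.748), SALL2 (-0.023), MEST (-1.831) and PLAGL1 (-1.444) changed sign. With the near repeats kept, those of ZNF449 (-1.996), FAM151B (-0.995), MEST (-0.269) and SGCE (-0.245) changed sign. Without the 4 blastomeres, those of ZNF449 (-0.147), SALL2 (-0.006) and FAM151B (-0.045) changed sign. That of MEST was also -0.346 with a pseudocount of 0.1, -0.201 with nuclear genes rescaled, -0.099 with means of log2 values, -0.136 with the random effect and -0.134 with array weights, and further changes were to 0.251 with medians of blastomeres for LDHC, -0.161 with medians of blastomeres for ZNF449 and 0.091 with array weights for DIRAS3. With an embryo left out, the sign changed within the ranges -1.812 to 0.985 for LDHC, -0.138 to 0.696 for ZNF449, -2.086 to 0.945 for MIER3, -0.43 to 0.276 for SMAD5, -0.513 to 3.852 for 7SK, -0.311 to 3.565 for ENSSSCG00000038391, -0.952 to 1.138 for MEST and -0.721 to 0.449 for DIRAS3. The 306 genes called higher became 580 with a pseudocount of 0.1, 131 with 5, 178 under median-ratio scaling, 106 with means of log2 values, 128 with the embryo as a random effect over blastomeres, 0 with the 4-cell groups alone, 45 with array weights, 34 with the near repeats kept, 45 without the 4 blastomeres, 43 with 1 blastomere per embryo, 67 with both median-ratio scaling and the 4 blastomeres left out, and 213 to 619 with an embryo left out. The 26 genes called lower became 15 with no filter, 325 under median-ratio scaling, 13 with means of log2 values, 12 with medians of blastomeres, 0 with the 4-cell groups alone, 1 with array weights, 11 with the near repeats kept, 275 with both changes, and 21 to 48 with an embryo left out. The 6 genes whose difference changed from the 2-cell stage became 12 with a pseudocount of 0.1, 0 with 5, 10 under median-ratio scaling, 0 with means of log2 values, 35 with medians, 0 with the random effect, 2 with array weights, 12 with no trend, 0 with the near repeats kept, 3 without the 4 blastomeres, 0 with 1 blastomere, 20 with both changes, and 7 to 129 with an embryo left out. For the 1-cell stage, 5 became 18, 1, 20 with no filter, 16 under median-ratio scaling, 26 with medians, 11 with the random effect, 16 with no trend, 1 with the near repeats kept, 2 without the 4 blastomeres, 3 with 1 blastomere, 27 with both changes, and 11 to 138. These counts hold both directions, while all of the 6 and the 5 lay higher at the 4-cell stage. Under median-ratio scaling, 2 lay higher and 8 lower against the 2-cell stage, and 3 and 13 against the 1-cell stage. With both changes these were 4 and 16, and 5 and 22. Without the 4 blastomeres they were 1 and 2, and 1 and 1. PA embryo 1 has 1 blastomere. Without the 4 blastomeres, NAP1L5, IGF2R, CYP19A1 and ENSSSCG00000027046 gave no value. The counts of genes per embryo without the 4 blastomeres were also chosen after seeing the data.

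Embryo numbers do not pair the samples, as deviations of same-numbered IVF and PA embryos correlated at 0.0293, -0.0111 and 0.002. With the embryo number as a replicate block, 269 genes were called higher, 24 lower, 0 against the 2-cell and 4 against the 1-cell stage.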
